A study of Homo sapiens with 2 samples.

Results

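SOX9 binding at the 4 HOX clusters was examined in HT-29, a line grown from a human colorectal adenocarcinoma, over the protein-coding HOXA, HOXB, HOXC and HOXD genes. The members were the 39 HOX genes that GENCODE annotates on hg19 (11 in HOXA, 10 in HOXB, 9 in HOXC and 9 in HOXD), of 20098 protein-coding genes on chromosomes 1 to 22 and X. With them were taken the 34 SOX9 peaks, of 17847 in the whole list, whose summit lay between the first and the last gene of a cluster or within 20 kb of either. The experiment held 1 SOX9 ChIP library, made with an antibody to SOX9, and 1 input library of sheared DNA without antibody, both from formaldehyde-fixed HT-29 cells for which the labels name no treatment. Each library held 12320108 tags in the authors' signal maps, since the input had been cut to the number of ChIP alignments. With 1 library of each there was no replicate error, and all intervals given below are 95% intervals for counting error only. The libraries had been amplified by PCR and carried no molecular identifiers, so tags are not strictly independent molecules.

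HOX genes encode homeodomain transcription factors that give cells their position along the body axis, and in the adult intestine they continue to mark regions of the gut. They lie in clusters, and genes at the same place in different clusters form numbered paralog groups. Low numbers are used in anterior and high numbers in posterior tissues. SOX9 is a transcription factor with an HMG box, active in the stem cell zone of intestinal crypts and in cartilage, where it often binds as a dimer to facing copies of its site.

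Sequence under the summits is shown for 6 peaks that carry the main observations below, each read from the plus strand of hg19. The first is the strongest peak of the 4 clusters, in an intron of HOXB3 (chr17:46639596-46639696), with a facing pair of SOX9 sites in capitals. The next 3 hold CCAAT, the core site of NF-Y, in capitals (read as ATTGG on the other strand): the start of HOXA9 (chr7:27205148-27205248), the canonical start of HOXA3 (chr7:27192181-27192281), and the peak upstream of the HOXB-AS3 long non-coding RNA (chr17:46679247-46679347). The peak beside MIR615 in an intron of HOXC5 (chr12:54427300-54427500) has 1 SOX9 site, in capitals, and the peak at the start of HOXA10-AS (chr7:27208721-27208821) is shown for its run of GT repeats.
HOXB3 intron: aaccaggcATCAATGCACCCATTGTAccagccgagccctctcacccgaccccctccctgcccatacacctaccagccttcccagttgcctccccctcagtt
HOXA9 start: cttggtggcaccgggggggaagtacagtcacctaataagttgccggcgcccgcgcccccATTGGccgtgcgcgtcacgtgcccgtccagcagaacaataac
HOXA3 start: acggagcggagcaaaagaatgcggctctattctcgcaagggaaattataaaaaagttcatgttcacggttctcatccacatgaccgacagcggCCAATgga
HOXB-AS3 upstream: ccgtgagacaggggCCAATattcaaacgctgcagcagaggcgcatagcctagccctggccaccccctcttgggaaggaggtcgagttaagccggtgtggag
MIR615 and HOXC5: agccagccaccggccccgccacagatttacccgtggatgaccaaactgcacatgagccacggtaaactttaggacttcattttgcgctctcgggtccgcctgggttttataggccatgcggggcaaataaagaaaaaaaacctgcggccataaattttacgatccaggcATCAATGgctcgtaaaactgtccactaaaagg
HOXA10-AS start: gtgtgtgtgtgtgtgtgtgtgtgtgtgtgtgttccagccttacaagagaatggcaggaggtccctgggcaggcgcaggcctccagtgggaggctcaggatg

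The clusters differed in how many SOX9 peaks they held. The HOXA window (chr7:27112612-27259710, 147 kb) had 14 peaks, or 9.52 per 100 kb (Poisson interval 5.20 to 16). The HOXB window (chr17:46585888-46826112, 240.2 kb) had 13 peaks, or 5.41 per 100 kb (2.88 to 9.25). The HOXC window (chr12:54312615-54469814, 157 kb) had 5 peaks, or 3.18 per 100 kb (1.03 to 7.42), and the HOXD window (chr2:176937449-177075635, 138 kb) had 2, or 1.45 per 100 kb (0.175 to 5.23). Peak density was 6.58 times higher in HOXA than in HOXD (exact conditional interval 1.51 to 59.6), and HOXA and HOXB together had 2.94 times the density of HOXC and HOXD together (1.25 to 8.0). Between HOXA and HOXB the ratio was 1.76 (0.767 to 4.06), an interval that includes 1. HOXB13 lies apart from the other HOXB genes, and from HOXB1 to HOXB9 with 20 kb either side there were 12 peaks in 138 kb, or 8.71 per 100 kb. With only the peaks whose negative log10 p times 10 was at least 100, HOXA held 11 peaks, HOXB 5, HOXC 2 and HOXD 2. The closest summits were 0.511 kb apart in HOXB and 0.895 kb apart in HOXC, in nearly touching peaks. The counting intervals treat such peaks as independent.

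The surroundings of the clusters were poorer in peaks at HOXA and HOXB. Within 1 Mb on either side there were 0.35 peaks per 100 kb around HOXA (0.141 to 0.721) and 1.8 around HOXB (1.26 to 2.49), both below the interval of the window itself. Around HOXC there were 2.7 per 100 kb (2.03 to 3.52) and around HOXD 0.25 (0.0812 to 0.583), and these intervals overlapped those of the windows. Over chromosomes 1 to 22 and X the density was 0.588 per 100 kb. Of 18634 tiles of 150 kb across the genome, only 5 held 14 or more peaks, as the HOXA window did, whereas 4.05% held 5 or more and 23.1% held 2 or more, the numbers in HOXC and HOXD. The HOXB window, at 240.2 kb, is much longer than a tile, so its 13 peaks are not set against them. The HOXC window, at 157 kb, is slightly longer than a tile, so its shares are approximate. In the 1248 tiles with a GC content of 48 to 52%, the range that holds all 4 windows, the median was 2 peaks per tile, 0.0801% held 14 or more, 17.9% held 5 or more and 55.8% held 2 or more. Neither the tiles nor the neighbours were matched to the windows by their number of genes or starts. Of all peaks, 54.0% lay within 1 kb of a start, and the part of start density in these peak counts was not tested.

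**Figure D1:**
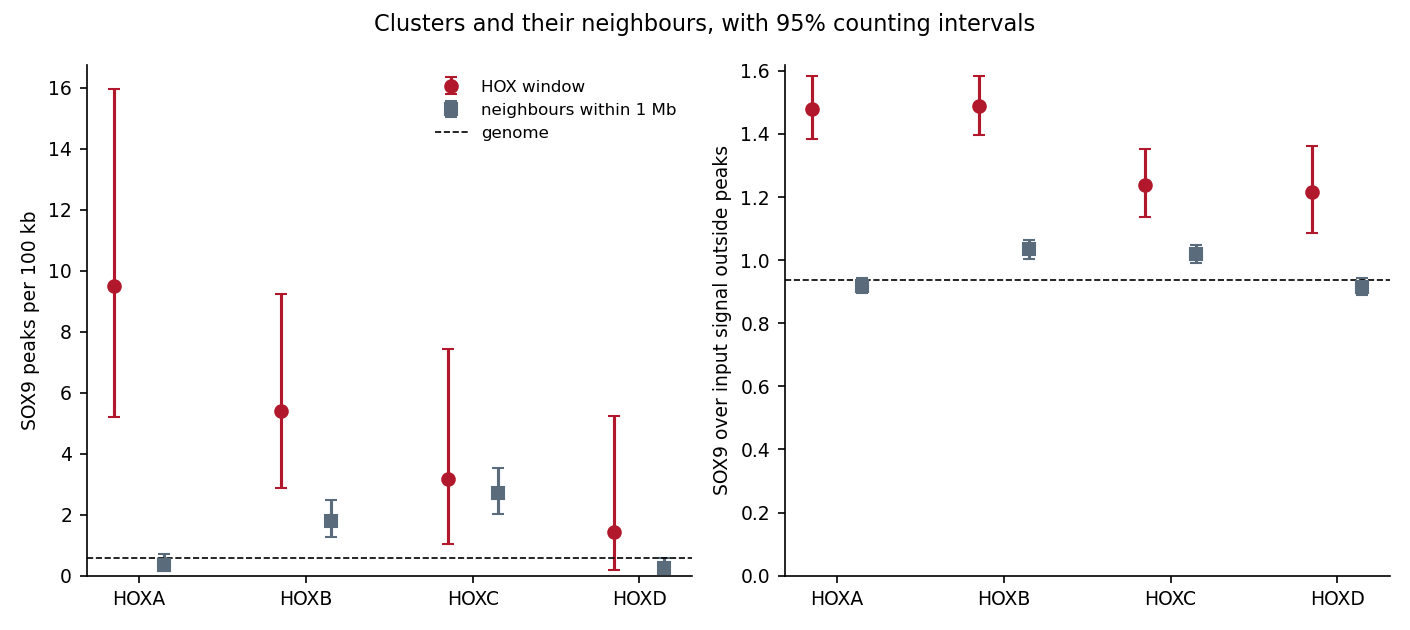
Left, SOX9 peaks per 100 kb and right, SOX9 ChIP over input signal outside peak intervals, in the 4 HOX windows (circles), in the 1 Mb on either side (squares) and in the genome (dashed line), with 95% counting intervals. Peak density was 9.52 per 100 kb in HOXA and 1.45 in HOXD, and the ratio between peaks was above that of the neighbours in all 4 windows.

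The SOX9 signal was also higher than the input between the peaks. Outside peak intervals, the ratio of SOX9 tags to input tags was 1.48 in HOXA (1.38 to 1.58), 1.49 in HOXB (1.40 to 1.58), 1.24 in HOXC (1.14 to 1.35) and 1.22 in HOXD (1.09 to 1.36). The neighbours within 1 Mb gave 0.919, 1.03, 1.02 and 0.916 in the same order, and the genome outside peaks gave 0.935. The intervals of HOXA and HOXB did not overlap those of HOXC and HOXD, and none of the 4 windows overlapped its neighbours. Among the tiles with a GC content of 48 to 52%, the median ratio was 1.01, and 99.8% of them were below HOXA, 99.8% below HOXB, 96.9% below HOXC and 95.3% below HOXD. Farther than 1 kb from any peak the ratios were 1.48 in HOXA (1.37 to 1.6), 1.41 in HOXB (1.32 to 1.51), 1.21 in HOXC (1.11 to 1.33) and 1.2 in HOXD (1.07 to 1.35), and the interval of HOXB then overlapped those of HOXC and HOXD.

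The input itself was not even over the clusters. Its mean signal was 2.62 times the autosomal median in the HOXA window, 1.73 times in HOXB, 1.47 times in HOXC and 0.984 times in HOXD. In the neighbours within 1 Mb the input was 1.45 times the autosomal median around HOXA, 1.18 times around HOXB, 1.2 times around HOXC and 1.04 times around HOXD. The order of the clusters by input was thus the order of the clusters by peak density, and the GC content of the windows was 50.2% in HOXA, 49.0% in HOXB, 50.8% in HOXC and 49.4% in HOXD. The part of the input level in the peak counts was not tested.

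**Figure D2:**
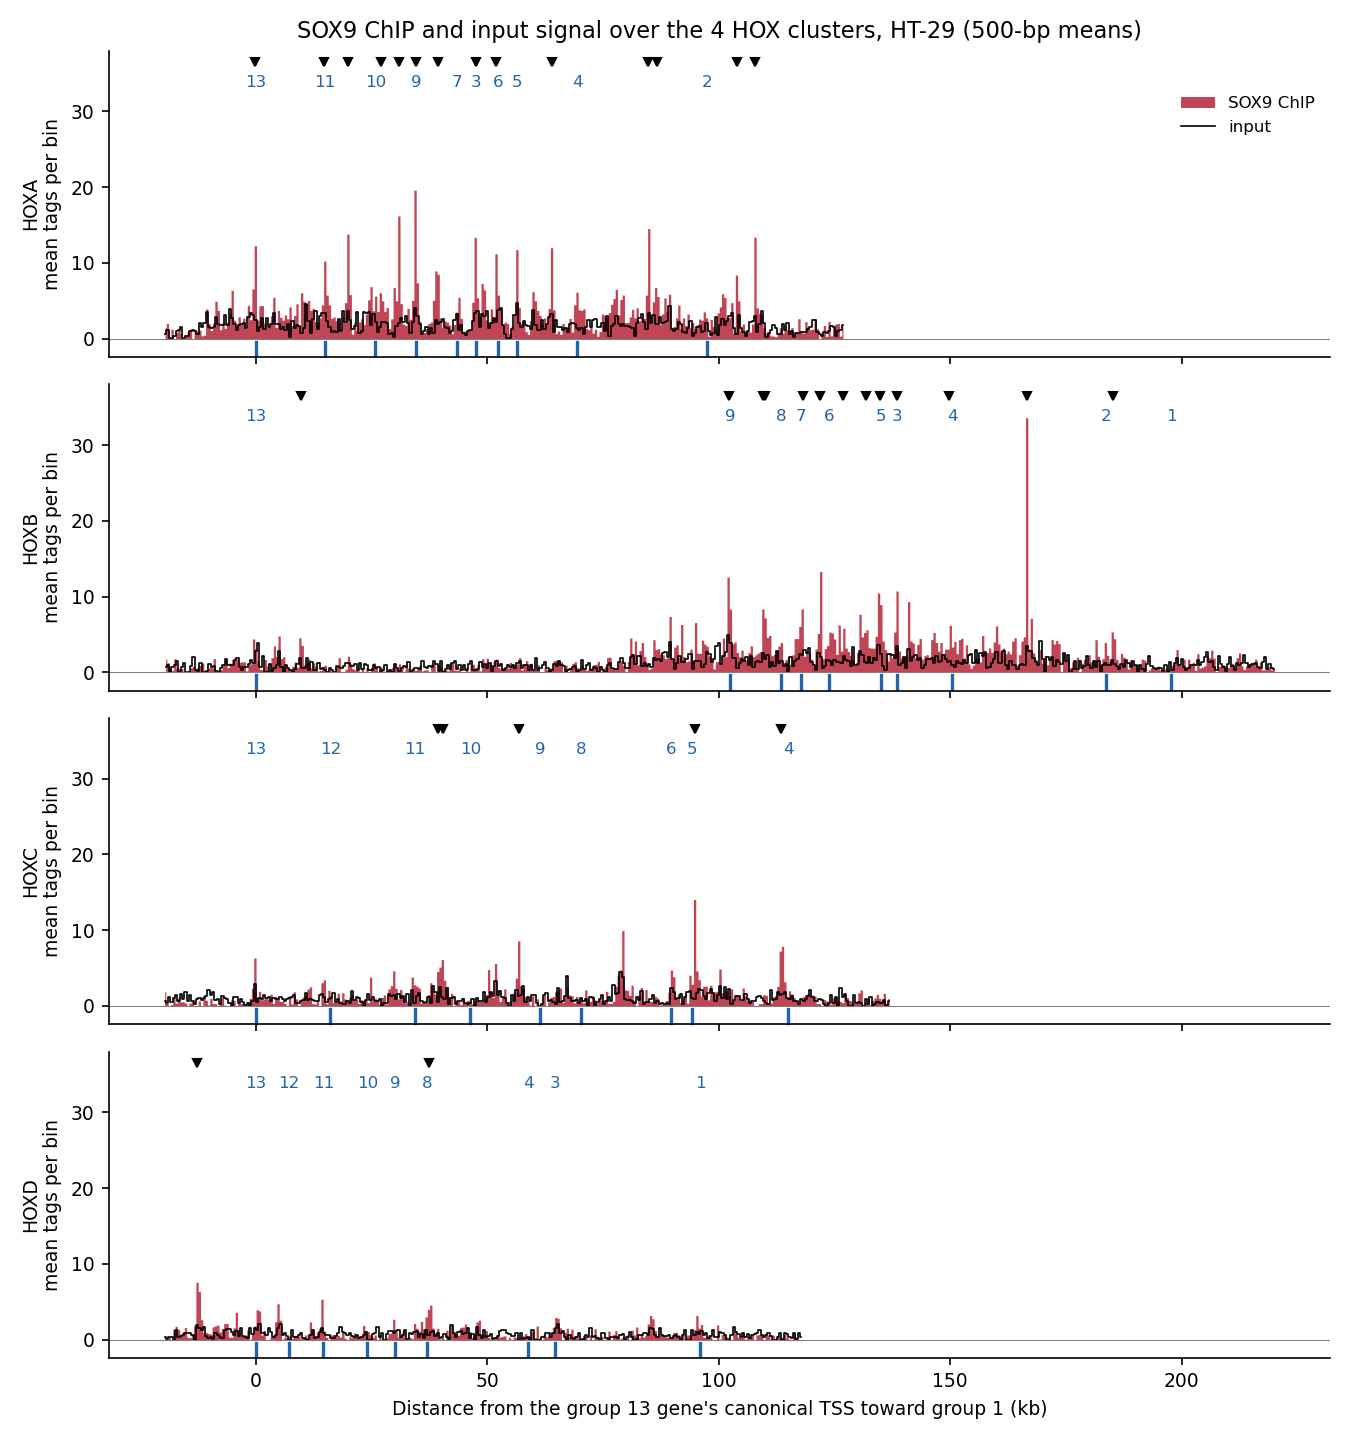
Mean SOX9 ChIP signal (red) and input signal (black line) per 500 bp over the 4 clusters, in extended tags per 32-nt bin, by distance in kb from the canonical TSS of the group 13 gene toward group 1. Triangles mark summits of the 34 peaks and blue ticks with paralog numbers mark canonical TSSs of the genes shown; the highest value, 33.6 against 3.53 in the input, lies in the HOXB3 intron.

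The single strongest HOX peak was in an intron of HOXB3, a group 3 gene (chr17:46639184-46640124). It held 116 SOX9 tags at a fold enrichment of 28.15, which placed it above 92.5% of all peaks by tags and above 95.7% by fold. Its highest bin held 72 extended tags in the ChIP, against 5 in the input. The summit lay 5341 bp upstream of the nearest HOXB3 start and 5022 bp downstream of the start of the HOXB-AS2 long non-coding RNA. From 42 to 25 bp before the summit on the plus strand stood 2 facing copies of the SOX9 consensus NNCAANG (each N being A or T) with a spacer of 4 bp. This was the only such pair within 100 bp of a summit among the 34 HOX peaks. Of all 17846 peaks on chromosomes 1 to 22 and X, 41 (0.230%) had it, with a median of 32 tags, and the HOXB3 peak ranked 5th among them by tags.

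With the HOXB3 intron peak included, the HOX peaks were of ordinary size by tags but had a low median fold. That median lay below the lower quartile of all peaks, 7.98. The 34 peaks held a median of 50.5 tags (19 to 116), against 45 over all peaks, and had a median fold enrichment of 7.88 (4.76 to 28.15), against 10.39 over all peaks. In HOXA the median was 57.5 tags and a fold of 7.1, while the medians were 29 tags and 7.87 in HOXB, 30 tags and 11.36 in HOXC, and 36 tags and 11.7 in HOXD. Among peaks within 1 kb of a TSS, the 22 in the HOX windows had a median of 49.5 tags, against 54 over all such peaks, and a fold of 7.34, against 10.06. Because the fold is measured against local input, the level of the input in each window enters this value.

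In HOXA, summits were spread from one end of the cluster to the other, with a median gap of 5.11 kb and a largest gap of 20.8 kb between neighbours. HOXA2, HOXA4, HOXA5 and HOXA7 had no summit within 1 kb of any annotated start, the nearest being 6467, 5286, 4490 and 2894 bp away. Summits lay within 1 kb of a start for 11 of the 14 peaks, and for 6 of these the nearest start was that of a long non-coding RNA. At the posterior end, a summit (54 tags, 6.75-fold) lay 26 bp upstream of HOTTIP and 320 bp upstream of HOXA13, whose starts face away from each other. HOTTIP is a long non-coding RNA known to act on the posterior HOXA genes. A second such pair was HOXA11-AS and HOXA11, with a summit (58 tags, 5.10-fold) 69 bp upstream of the antisense RNA and 107 bp upstream of the gene. HOXA-AS2 had a summit 35 bp upstream of its start (61 tags, 11.61-fold) inside an intron of HOXA3.

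The largest HOXA peak was at HOXA9, a posterior gene known for its role in blood stem cells and leukaemia. It held 86 tags at 9.32-fold, and its summit was 42 bp upstream of the canonical start. CCAAT stood on the minus strand, 9 to 13 bp farther upstream than the summit. The canonical start of HOXA3, which is shared by a long transcript that spans HOXA4 to HOXA6, had a peak of 68 tags (8.84-fold). The summit of that peak lay 29 bp upstream, with CCAAT 43 to 47 bp farther upstream than the summit. HOXA10 had no summit within 1 kb of its canonical start, but peaks lay 28 bp downstream (62 tags) and 162 bp upstream (33 tags) of other annotated HOXA10 starts. HOXA6 had a summit 397 bp upstream (61 tags, 6.66-fold). Other HOXA peaks were at HOXA10-AS (57 tags, 14.29-fold), 286 bp past another HOXA3 start (31 tags), in a HOXA3 intron 4140 bp past a start (56 tags) and between HOXA9 and HOXA7 (64 tags), with 2 further peaks not described here. HOXA transcripts overlap on both strands, and a summit near several starts cannot be given to one of them.

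In HOXB, 8 of the 13 summits lay within 1 kb of a start. HOXB5, a central gene with a role in gut innervation, had the largest of these, with 71 tags at 10.53-fold and the summit 251 bp upstream. HOXB9 had a summit 229 bp upstream (50 tags, 6.12-fold), HOXB3 52 bp upstream (41 tags, 7.23-fold) and HOXB4, a factor of blood stem cells, 573 bp upstream (29 tags, 6.49-fold). HOXB7 had its summit 418 bp downstream of the start (49 tags, 4.76-fold, the lowest fold among the 34). Smaller peaks were found 71 bp past an alternative HOXB6 start (28 tags), 203 bp upstream of HOXB-AS3 (23 tags) and 25 bp past the start of HOXB-AS1 in an exon of HOXB2 (25 tags, 11.46-fold). Beside the HOXB3 intron peak, the peaks farther from starts were 1364 bp past a HOXB7 start (56 tags, 14.76-fold), 2 neighbours upstream of HOXB8 (29 and 23 tags), and 1 peak of 20 tags that was 9700 bp past HOXB13 and 3468 bp past PRAC1, a gene expressed in prostate and distal colon. Between that peak and the HOXB9 peak, 92.5 kb held no summit.

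In HOXC the 5 peaks lay from HOXC11 to HOXC4, and in HOXD the 2 peaks lay at HOXD8 and outside HOXD13. The largest fold in HOXC was 16.37 (51 tags), 334 bp upstream of MIR615 and 566 bp past the HOXC5 start. A peak of 56 tags (14.29-fold) lay 1490 bp upstream of the canonical HOXC4 start, and one of 30 tags (7.74-fold) was 160 bp past another HOXC9 start. Peaks of 28 and 21 tags lay 3278 and 4173 bp upstream of HOTAIR, a non-coding RNA of HOXC known to act with Polycomb. In HOXD, a peak of 53 tags (12.06-fold) lay in an exon of EVX2, the homeobox gene next to HOXD13, and a peak of 19 tags (11.43-fold) lay 470 bp past the canonical HOXD8 start, in a HOXD8 exon. No summit was found from HOXD13 to HOXD9 or from HOXD4 to HOXD1.

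By position, 16 of the 34 HOX summits were in introns of HOX genes, 5 in exons of HOX genes, 6 in exons of another gene and 7 elsewhere. The share within 1 kb of any annotated start was 64.7% (22 peaks), against 54.0% over all peaks. The summit was at or upstream of the start in 13 of these 22, against 68.6% over all peaks within 1 kb of a start. The nearest start was that of a long non-coding RNA in 8 of the 22, against 15.0% (1449 of 9630) over all peaks within 1 kb. How many such starts the windows hold, against the rest of the genome, was not compared.

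A SOX9 summit within 1 kb of the canonical start was counted as a promoter peak. Of the 39 HOX genes, 13 had one (33.3%, Wilson interval 20.6 to 49.0), against 41.0% of all protein-coding genes. With any annotated start, 18 of 39 HOX genes had one, against 45.0% of all genes. The median GC content around the start was 59.7% in HOX genes and 61.2% in all protein-coding genes. Among genes with a GC content of at least 60% there, 7 of 19 HOX genes (36.8%, 19.1 to 59.0) had a promoter peak, against 53.0% of all such genes. The share of HOX genes was thus near or below the background, and its interval included the background of 41.0%. By cluster, promoter peaks were found at 6 of 11 HOXA, 5 of 10 HOXB, 1 of 9 HOXC and 1 of 9 HOXD genes. HOXA and HOXB together had 11 of 21 (52.4%, 32.4 to 71.7), while HOXC and HOXD together had 2 of 18 (11.1%, 3.10 to 32.8).

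Signal at the start sites was taken as the mean number of extended tags per 32-nt bin within 500 bp of the canonical start. The highest SOX9 signal was at HOXA9, with 13.1 in the ChIP, against 3.56 in the input. HOXB9 had 10.7 in the ChIP, against 3.90 in the input, HOXA3 9.84 in the ChIP, against 3.35 in the input, and HOXB5 8.88 in the ChIP, against 2.06 in the input. At HOXA13 the ChIP had 8.28 and the input 1.97, and at HOXA11 the ChIP had 8.71 and the input 3.42. All HOXA starts had at least 2.81 in the ChIP, whereas the HOXD starts had at most 3.41. The median signal was 7.66 in the ChIP, against 2.35 in the input for HOXA, 4.40 in the ChIP, against 1.81 in the input, for HOXB. It was 1.68 in the ChIP, against 0.938 in the input, for HOXC, and 1.90 in the ChIP, against 0.935 in the input, for HOXD. Over all protein-coding genes it was 3.91 in the ChIP, against 1.48 in the input.

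On the log2 scale with 1 added to both signals, the largest SOX9 over input values were 1.69 at HOXB5, 1.64 at HOXA13 and 1.63 at HOXA9. In tags, these were ratios of 4.38 (2.37 to 8.73), 4.08 (2.19 to 8.15) and 3.65 (2.28 to 6.07). The lowest values were -0.27 at HOXB13, a gene of the prostate and distal gut with 2.5 in the ChIP, against 3.22 in the input, -0.13 at HOXB1, with 0.645 in the ChIP, against 0.806 in the input, and 0 at HOXD4, with 0.323 in both. The ratio at HOXB13 was 0.762 (0.372 to 1.53), and its interval included 1. At HOXB1, with 4 ChIP and 5 input tags, the ratio was 0.8 (0.159 to 3.72), which was not measurable at this depth. HOXC5 had the largest log2 value in HOXC (1.52) and HOXD8 that in HOXD (1.21), both the only genes of their cluster with a promoter peak. The calls rest on the same ChIP signal, so the log2 value and the call are not independent. HOXC10 had 3 tags in the ChIP, against 2.6 in the input, HOXC9 1.8 ChIP and 1 input tag, HOXD12 2.8 ChIP and 1 input tag, and HOXD4 2 ChIP and 2 input tags, so a ratio at these starts was not measurable at this depth. HOXA4 (log2 value 1.36) had raised SOX9 signal and no summit within 1 kb. HOXA5, also without a summit within 1 kb, had 8.03 in the ChIP and 4.03 in the input. Its log2 value of 0.84 was near the median of 0.82 over all protein-coding genes.

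Summed over the members, SOX9 tags were 2.60 times the input tags at HOX starts (2.32 to 2.92), against 3.16 times over all protein-coding genes. The HOX ratio was 0.824 of that of all genes (0.735 to 0.924). The median log2 value was 0.90 over HOX genes and 0.82 over all genes, so the sum and the median differed in direction. Among genes with a GC content of at least 60% the median was 0.90 over HOX genes and 1.12 over all genes. By cluster the summed ratio was 2.74 in HOXA (2.31 to 3.26), 2.66 in HOXB (2.15 to 3.30), 2.33 in HOXC (1.68 to 3.27) and 2.30 in HOXD (1.62 to 3.31). HOXA and HOXB together had 1.16 times the ratio of HOXC and HOXD (0.891 to 1.52), an interval that includes 1.

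The 13 HOX genes with a promoter peak had a median SOX9 signal of 7.66 (3.41 to 13.1), against 2.63 (0.290 to 8.03) in the 26 without one. Their median input was also higher, at 2.39 (0.906 to 3.90), against 1.06 (0.161 to 4.03). Across the 39 genes the SOX9 and input signals ran together, with a Spearman correlation of 0.883 (Pearson 0.884), and over all protein-coding genes the Spearman correlation was 0.850. These are descriptions across genes of the same pair of libraries, and the part of the input in the calls was not tested. The peaks were called from this same ChIP library, so a higher SOX9 signal in the genes with a promoter peak was fixed in advance.

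Posterior and anterior HOX genes were then compared. A promoter peak was found at 4 of 16 posterior genes of groups 9 to 13 (25%, 10.2 to 49.5), 6 of 15 central genes of groups 4 to 8 (40.0%, 19.8 to 64.3) and 3 of 8 anterior genes of groups 1 to 3 (37.5%, 13.7 to 69.4), shares that overlapped widely. The posterior genes with one were HOXA9, HOXA11, HOXA13 and HOXB9, the central ones HOXA6, HOXB4, HOXB5, HOXB7, HOXC5 and HOXD8, and the anterior ones included HOXA3 and HOXB3. Tags at the starts were 2.51 times the input in posterior genes (2.10 to 3.03), 2.72 times in central genes (2.26 to 3.28) and 2.54 times in anterior genes (1.96 to 3.30). The posterior ratio was 0.992 of the anterior one (0.728 to 1.35) and 0.944 of that of groups 1 to 8 (0.748 to 1.19). Both intervals include 1, and a difference within these bounds could not be seen at this depth.

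The same comparison was then made within clusters. Of the posterior genes, 3 of 4 in HOXA (75%, 30.1 to 95.4) and 1 of 2 in HOXB (50%, 9.45 to 90.5) had a promoter peak. In HOXC and in HOXD 0 of 5 did (Wilson upper bound 43.4% each), and the intervals of the single clusters overlap. With HOXA and HOXB pooled the count was 4 of 6 (66.7%, 30.0 to 90.3). The posterior genes of HOXC and HOXD were not pooled, so a pooled difference was not tested. Within HOXA the posterior starts had a ratio of 3.23 (2.46 to 4.30) and the anterior starts 2.75 (1.93 to 3.98), or 1.18 times as much (0.758 to 1.82). Within HOXB the posterior starts, HOXB9 and HOXB13, had 1.84 (1.27 to 2.71) and the anterior starts 2.48 (1.57 to 4.04), or 0.743 times as much (0.418 to 1.32). Within HOXD the posterior ratio was 1.18 times the anterior one (0.523 to 2.66), and HOXC has no anterior gene. All 3 intervals included 1. Restricted to peaks with a negative log10 p times 10 of at least 100, 2 posterior and 2 anterior genes kept a promoter peak.

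**Figure D3:**
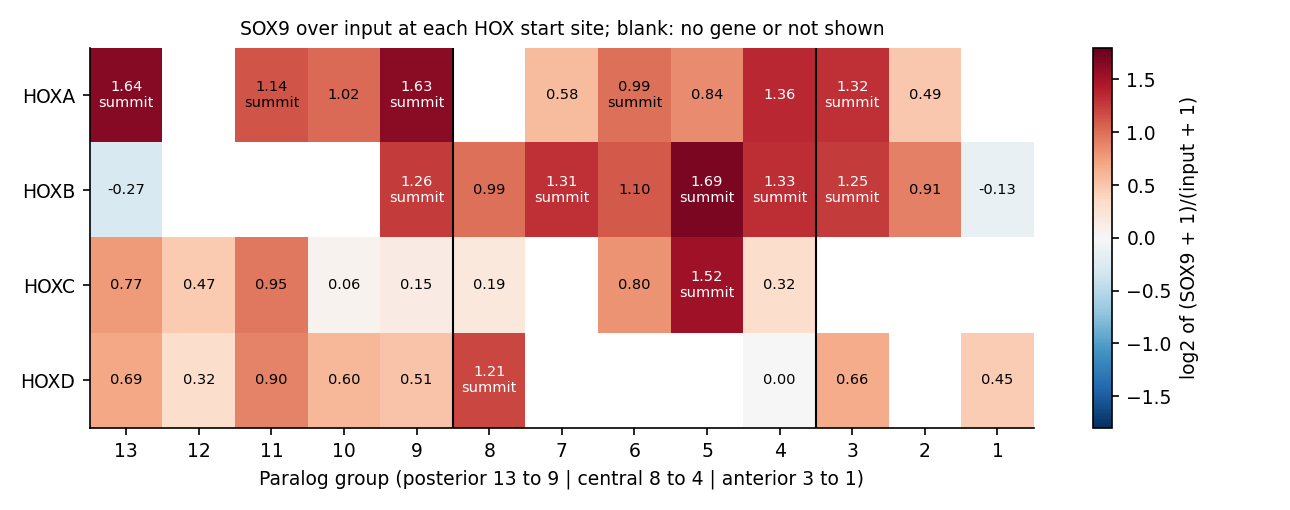
Log2 of SOX9 plus 1 over input plus 1 at each canonical start by cluster (rows) and paralog group from 13 to 1 (columns), with genes that had a summit within 1 kb marked; blank cells hold no gene or one not shown. Values run between -0.27 at HOXB13 and 1.69 at HOXB5, and the HOXC and HOXD rows have 1 marked gene each.

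Sequence motifs were counted within 100 bp of the summits on both strands. CCAAT was present in 7 of the 34 HOX peaks (20.6%, 10.3 to 36.8), against 26.4% of all peaks. The SOX9 consensus NNCAANG (each N being A or T) was present in 6 (17.6%, 8.35 to 33.5), against 20.5%. Among peaks within 1 kb of a start the order was the other way, with the consensus in 3 of 22 HOX peaks (13.6%, 4.75 to 33.3), against 8.83% of all such peaks, which lies within the interval. The pattern searched for the AP-1 family, TGANTCA with N being any base, was in 0 of 34. By the Wilson interval this allows a share of up to 10.2%, against 15.1% of all peaks and 5.80% of all peaks within 1 kb of a start. The ETS core CGGAAG was in 2 of 34 (5.88%, 1.63 to 19.1), against 16.8% of all peaks. Among peaks within 1 kb of a start, the ETS core was in 1 of 22 HOX peaks (4.55%, 0.807 to 21.8), against 26.4% of all such peaks, which is above the interval. Over whole peak intervals the AP-1 site was still in 0 of 34, against 28.6% of all peaks and 16.9% of those within 1 kb of a start. The ETS core was then in 12 of 34 HOX peaks, against 35.5% of all peaks, and in 5 of 22 near starts (22.7%, 10.1 to 43.4), against 53.5%. The CTCF core was in 0 of 34 within 100 bp of the summit, against 1.57% of all peaks, and in 1 of 34 over whole intervals, against 2.18%. No peak held both CCAAT and the SOX9 consensus within 100 bp.

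The CCAAT copies stood at HOXA13 and HOTTIP, HOXA9, HOXA3, HOXA-AS2, HOXB-AS3, HOXB6 and EVX2. The SOX9 consensus stood, among others, at HOXA11, upstream of HOXB8 (in 2 copies facing the same way), at HOXB5, in the HOXB3 intron and beside MIR615. Only in the HOXB3 intron was it within 50 bp of the summit. The facing pair in the HOXB3 intron is made of 2 copies of the consensus, and its peak is counted under both. A run of at least 10 copies of TG or CA was within 100 bp of the summit in 2 HOX peaks, those at HOXA10-AS and upstream of HOXB8, and in 1.05% (188) of all peaks. This search was made after the sequences had been seen.

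The HOX clusters also hold microRNAs, small RNAs that repress transcripts through the seed at bases 2 to 8, several of which target HOX transcripts. MIR196B lay 328 bp from the summit at HOXA10-AS (57 tags, 14.29-fold) and MIR615 334 bp from the summit in HOXC5 (51 tags, 16.37-fold). The other miR-196 genes were farther away, with MIR196A2 3822 bp from the summit near HOXC9 and MIR196A1 5903 bp from that at HOXB9. MIR3185 was 5358 bp from the summit past HOXB13 and MIR10B 20128 bp from that at HOXD8. The miR-196 genes of the 3 clusters share 1 seed, which is shown in capitals in the mature sequences, taken from RefSeq on GRCh38.p14, beside miR-615-3p with its own seed.
hsa-miR-196b-5p: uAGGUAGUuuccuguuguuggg
hsa-miR-196a-5p: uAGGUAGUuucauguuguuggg
hsa-miR-615-3p: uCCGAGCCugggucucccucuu

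Genes that work with the HOX proteins and relatives of the HOX genes were looked at in a list of 17. The TALE homeodomain proteins bind DNA together with HOX proteins, and 6 of their 9 genes had a promoter peak. PKNOX1 had the highest signal, with 25.9 in the ChIP, against 1.65 in the input, and a peak of 191 tags at 52.98-fold. MEIS1 had 19.1 in the ChIP, against 3.39 in the input (218 tags, 23.38-fold), and MEIS2 had 11.3 in the ChIP, against 3.58 in the input (156 tags, 7.48-fold). PBX2 and PBX3 had smaller peaks of 17 and 21 tags, and PBX4, MEIS3 and PKNOX2 had none. Of the 8 ParaHox and Evx genes, the relatives of HOX genes outside or beside the clusters, only PDX1, a factor of pancreas and duodenum, had a promoter peak (105 tags, 12.83-fold, summit 60 bp upstream). CDX2, which maintains intestinal identity, had 5.45 in the ChIP, against 3.90 in the input, and its nearest summit was 3200 bp past the canonical start and 1210 bp from another start. The counts of 6 of 9 and 1 of 8 stand beside the background of 41.0% of all protein-coding genes.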

How the data were processed

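SOX9 ChIP and input DNA from HT-29 cells were sequenced as single-end 50-nt reads, 1 library each. The authors aligned reads to hg19 with BWA (version not given in the sources used here), kept unique alignments without duplicates, downsampled the input, and called peaks with MACS 1.3.7.1 (p limit 1e-07) on the ChIP against the input. The deposited peak table gives a count of ChIP tags per peak, a score (minus 10 times the log10 of the p-value from MACS), a fold enrichment as a ratio to local input, and an empirical FDR in percent. The deposited maps give as signal how many tags, each lengthened to 150 bp, cover every 32-nt bin, without further scaling. Both maps summed to 12320108 tags, and the number of tags in a window was taken as its summed signal divided by 5, the bins that 1 tag fills.

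Genes and canonical transcripts came from GENCODE release 44 mapped to hg19. Anterior genes were paralog groups 1 to 3, central 4 to 8 and posterior 9 to 13. Windows ran from the first to the last gene with 20 kb either side. With 1 library per group no test between samples was possible, so ratios carry exact conditional binomial intervals, shares Wilson intervals and peak numbers Poisson intervals, and ratios of ratios intervals from the log scale. All 39 genes and 34 peaks entered the counts and sums, but some items are not reported here; described in full were genes with a summit within 1 kb and the 3 highest and 3 lowest ratios on the log2 scale with a pseudocount of 1. The members and lists were chosen with earlier results of these data known. The tiles of like GC content, the TG repeats, the shares nearest a long non-coding RNA and the window from HOXB1 to HOXB9 were added after seeing the data. The functions were tested on simulated data. Cell identity could not be checked from expression, and the culture medium differs between the labels (DMEM) and the methods (McCoy's 5A). Alternatives were a score of at least 100, other flanks, distances, starts, windows and pseudocounts. Computations were run in Python 3.11.15 with pandas 2.3.3, SciPy 1.17.1 and NumPy 2.4.6, and plots with matplotlib 3.10.9.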

Additional observations from a re-analysis of the deposited data

How the results depend on the processing

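With 1 library per group, no replicate could be left out and depth limited the starts with fewer than about 10 tags, mostly in HOXC and HOXD. No paired analysis was possible because there was 1 ChIP and 1 input library. Of 62 values under alternatives, 48 were counted as unchanged and 14 as moved. The limit was 1.5 times the reported value for counts and its counting interval for ratios. Neither limit covers the median log2 values, and that of HOX genes was counted as moved, from 0.90 to 1.09. The order of posterior and anterior starts, 2.51 and 2.54 in the reported ratios, turned within 250 bp (2.91 posterior, 2.87 anterior) and at the start with the highest SOX9 signal (2.70 posterior, 2.59 anterior). With a negative log10 p times 10 of at least 100, there were 5 peaks in HOXB, 2 in HOXC and 2 posterior genes with a promoter peak, which follows from the stricter limit; HOXC and HOXD then held 2 peaks each, so the shorter HOXD window had the higher density. Without the flanks HOXD held 1 peak. With windows of 1 kb the SOX9 over input ratio was 2.19 over HOX starts and 2.01 over posterior starts. Counting groups 1 to 8 as anterior gave 9 genes with a promoter peak. Over whole peak intervals CCAAT was in 24 peaks, the SOX9 consensus in 18, the ETS core in 12 and the CTCF core in 1. Within 50 bp of the summit the SOX9 consensus was in 1 and the ETS core in 0. With a pseudocount of 0.5 the median log2 value of HOX genes was 1.09.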
